A study of Mus musculus with 80 samples.

Results

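Astrocytes and Bergmann glia were followed here through the messenger RNA of 10 genes that these cells are known for: Fabp7, Gdf10, Slc1a2, Slc1a3, Gfap, Aqp4, Gja1, Aldh1l1, S100b and Aldoc. The genes were chosen by name, and they were chosen on a result of these data, since Fabp7 had the most stable cerebellar difference by reproductive state. All 10 have a row in the count table of 27179 genes. All 10 are also among the 13016 genes that passed a filter on low counts, a CPM of 5 or more in at least 8 libraries. CPM stands for the counts of a gene scaled to a common library total, as is usual for RNA-seq. Gdf10 reached 5 CPM in 73 of the 77 libraries and the other genes in all of them. Because the cerebellar comparison of the states was used to choose the genes, it is given below as values with no test. The comparisons of the states in the other regions, and all comparisons between regions, were tested.

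The study compared C57BL/6 females (C57BL/6J in its methods) that had raised 1 litter (primiparous) with age-matched virgin females, born within days of each other. From the age of 8 weeks the primiparous females lived with a male for 2 weeks, while the virgins met no male. By the methods, virgins were kept 8 per cage, and each mated female shared a pen with 1 male for those weeks. Housing, mating, pregnancy, birth and care of pups therefore cannot be told apart. Tissue was taken 3 weeks after weaning by the labels, whereas the methods of the study give a longer interval. Polyadenylated RNA was sequenced from the hypothalamus, hippocampus, cortex, amygdala and cerebellum of the same 16 animals, 8 of each state, with the whole hypothalamus but only the left side of the other regions used. Each library came from 1 animal, and the libraries of a region were sequenced together, so that region and sequencing pool cannot be told apart. The 77 libraries analysed were 8 virgin and 8 primiparous libraries for the hypothalamus and the cortex, and 7 virgin and 8 primiparous libraries for the hippocampus, the amygdala and the cerebellum.

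Astrocytes clear glutamate from synapses, buffer water and ions at blood vessels through their end-feet, and are joined to each other by gap junctions. Bergmann glia are the astrocytes of the cerebellar cortex. Their cell bodies lie among the Purkinje cells, and their long fibres wrap the synapses of the molecular layer. Astrocytes differ between regions, and several of the genes below are textbook markers of 1 regional type rather than of astrocytes as a whole.

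Total counts ran from 7959192 to 37871854 per library, and no pair of libraries held identical values. Defining markers of astrocytes were present throughout: summed over the 10 genes, the level was 4064 to 8828 CPM across the 77 libraries. The cerebellar granule neuron markers Gabra6, Cbln3, Fat2, Neurod1 and Barhl1 summed to 2604 to 3590 CPM in cerebellar libraries. In the other regions they summed to at most 35.7 CPM, with the exception of the hippocampal library of primiparous animal 413 at 267 CPM. Results for the hippocampus are therefore also given without that library where they turn on it and such a fit was run. Differences by state between the hypothalamus and the hippocampus, and correlations within the hippocampus, were computed only with it. The animal numbers of the labels fall into 3-digit numbers (2 virgin and 7 primiparous animals) and 4-digit numbers (6 virgin and 1 primiparous animals). What the number series stands for is not given in the sources used here, and it moves with the states.

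Fabp7 encodes brain lipid binding protein, a carrier of fatty acids in radial glia, astrocytes and Bergmann glia. It lies on chromosome 10 from 57784881 to 57788450 (GRCm38, plus strand). In cerebellar libraries of virgins Fabp7 ranged from 16.5 to 26.6 CPM with a median of 21.9 CPM (n = 7). In primiparous libraries it ranged from 29.3 to 51.8 CPM with a median of 39.6 CPM (n = 8). Every primiparous library lay above every virgin library. The means were 21.9 ± 3.67 and 39 ± 7.8 CPM (SD), and the fitted log2 fold change, primiparous against virgin, was 0.84 (SE 0.128). This difference is what the choice of genes rests on, so no test is given for it. Leaving out each of the 15 cerebellar libraries in turn gave log2 fold changes of 0.77 to 0.90, a direction that the choice of genes fixes. In bulk tissue, more cells of a type and more RNA per cell cannot be told apart.

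The same direction was seen for Fabp7 in the 4 regions that the choice of genes did not use, and it passed the test in the hypothalamus alone. In the hypothalamus, virgin libraries ranged from 24.1 to 36 CPM (median 30.9, n = 8) and primiparous libraries from 32 to 47.7 CPM (median 39.8, n = 8). All 8 primiparous libraries lay above the virgin mean, although the ranges overlapped. The log2 fold change was 0.36 (SE 0.0936, adjusted p = 0.00935), where 22.6% of all genes tested passed the same threshold. Fabp7 passed it without each of the 16 libraries, with adjusted p-values of 0.00616 to 0.024. When the number series entered the fit as a covariate, the log2 fold change was 0.37 and the adjusted p was 0.184.

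In the amygdala, Fabp7 ranged from 26.7 to 48.7 CPM in virgins (median 33.5, n = 7) and from 39.2 to 68.1 CPM in primiparous females (median 51.9, n = 8). All 8 primiparous libraries lay above the virgin mean and 5 of them above every virgin library. The log2 fold change was 0.60 (SE 0.139) with an unadjusted p of 0.000359 and an adjusted p of 0.162 in edgeR, while DESeq2 gave an adjusted p of 0.00729. In the hippocampus, virgin libraries ranged from 14.9 to 22.4 CPM (median 16.6, n = 7) and primiparous libraries from 17.6 to 34.9 CPM (median 23.8, n = 8). There 7 of 8 primiparous libraries lay above all virgin libraries, and the log2 fold change was 0.42 (SE 0.127, adjusted p = 0.564). Whether the difference by state of Fabp7 was the same size in these regions was tested against the hypothalamus. The hypothalamic difference minus that of the hippocampus was -0.07 (SE 0.161), and minus that of the amygdala it was -0.23 (SE 0.173), with adjusted p-values of 0.776 and 0.364.

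**Figure D1:**
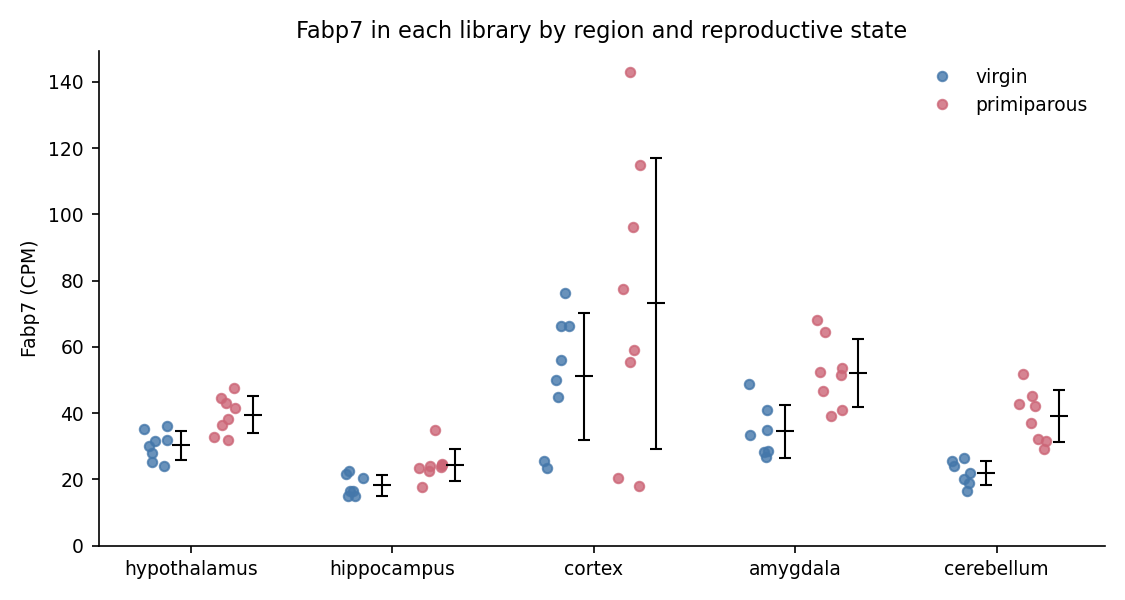
Fabp7 in CPM (vertical axis) in each of the 77 libraries, by region, with virgin libraries in blue and primiparous libraries in rose, and black bars for the mean and SD. In the cerebellum the 8 primiparous libraries sit between 29.3 and 51.8 CPM, above the 7 virgin libraries at 16.5 to 26.6 CPM, and the cortex has the widest spread, from 18 to 143 CPM.

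The cortex had both the highest levels of Fabp7 and the widest spread. Virgin libraries ranged from 23.4 to 76.2 CPM (median 52.9, n = 8) and primiparous libraries from 18 to 143 CPM (median 68.3, n = 8). The log2 fold change was 0.54 with an SE of 0.377 (adjusted p = 0.559). It was 0.33 in limma-voom, and 0.32 without primiparous animal 427. Across the 16 cortical libraries the level of Fabp7 followed that of 5 olfactory bulb genes (Doc2g, Eomes, Tbx21, Th and Calb2), a list chosen after their values were seen. The 5 genes summed to 14.9 to 393 CPM. The libraries with the lowest sums were those of primiparous 413 and 425 and virgin 405, at 14.9, 18.7 and 43.9 CPM, and they held Fabp7 at 20.5, 18 and 23.4 CPM. The library with the highest sum, from primiparous animal 427, held the highest Fabp7 at 143 CPM. Over these 16 libraries r was 0.90 between log2 of the summed CPM and log2 of Fabp7 CPM plus 4. Th and Calb2 are also among the genes most like Fabp7 in these data, so the choice of the list fixed part of this value. In the other regions that r was between -0.46 and 0.42. In a further fit, also chosen after seeing the data, the summed level was a covariate, and the cortical log2 fold change of Fabp7 was 0.50 with an SE of 0.131 and an adjusted p of 0.257. How much of the cortical spread comes from olfactory bulb tissue was not tested.

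**Figure D2:**
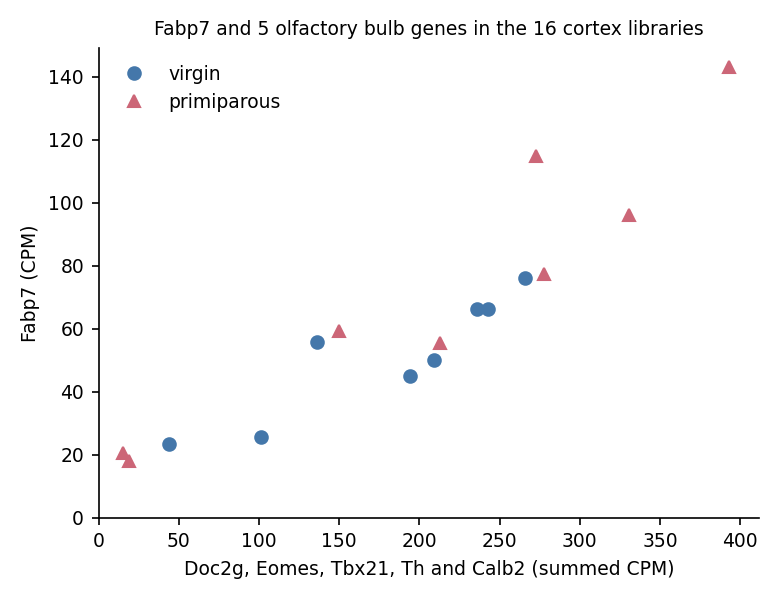
Fabp7 in CPM (vertical axis) against the summed CPM of 5 olfactory bulb genes (horizontal axis) in the 16 cortex libraries, with virgin libraries as blue circles and primiparous libraries as rose triangles. The 3 libraries with the lowest sums hold 18 to 23.4 CPM of Fabp7, and the library with the highest sum, 393 CPM, holds 143 CPM.

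Values of Fabp7 were also set side by side within each number series. In the cerebellum the 2 virgin libraries of the 3-digit series had Fabp7 at 16.5 and 26.6 CPM, and the 1 primiparous library of the 4-digit series at 32.3 CPM. Both virgin values lay below the 7 primiparous libraries of the same series, which ran from 29.3 to 51.8 CPM. The 32.3 CPM lay above the 5 virgin libraries of the 4-digit series, which ran from 18.8 to 25.5 CPM. The genes were chosen on this cerebellar difference, and its ranges by state do not overlap. Any split of the cerebellar libraries by series had to separate the states, so nothing is read from it. In the hypothalamus the 4-digit primiparous library, at 43.1 CPM, also lay above its 6 virgin counterparts at 24.1 to 36 CPM, while the 3-digit virgins, at 31.5 and 32 CPM, reached the lowest of the 3-digit primiparous libraries at 32 CPM. In the amygdala that library held 68.1 CPM against 28.4 to 41.1 CPM in 5 virgins of its series, but there the 3-digit virgins, at 26.7 and 48.7 CPM, overlapped the 3-digit primiparous libraries at 39.2 to 64.6 CPM. In the cortex the 4-digit primiparous library, at 55.5 CPM, lay within its virgins at 25.7 to 76.2 CPM, and in the hippocampus, at 22.5 CPM, it lay just above the highest of them at 22.4 CPM. The 3-digit libraries overlapped in both regions, with virgins at 23.4 and 66.4 CPM against 18 to 143 CPM in the cortex, and at 16.4 and 21.5 CPM against 17.6 to 34.9 CPM in the hippocampus. These are values of single libraries, and a difference within a series was not tested.

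Between regions Fabp7 was highest on average in the cortex, at 62.1 ± 34.6 CPM (SD, n = 16), although the 3 cortical libraries with the lowest olfactory bulb sums, at 18 to 23.4 CPM, lay below every library of the amygdala. It followed in the amygdala at 43.9 ± 12.7, the hypothalamus at 34.9 ± 6.82, the cerebellum at 31 ± 10.7 and the hippocampus at 21.5 ± 5.11 CPM. The cortex and the amygdala differed (log2 difference 0.49, SE 0.157, adjusted p = 0.00528), as did the amygdala and the hypothalamus (0.44, SE 0.159, adjusted p = 0.0114). Between the hypothalamus and the cerebellum the difference of 0.23 (SE 0.16, adjusted p = 0.171) did not pass. The difference of 0.34 between the cerebellum and the hippocampus had an adjusted p of 0.0513, and of 0.041 with the animal as a replicate block. The amygdala lay 0.67 above the cerebellum (SE 0.162, adjusted p = 0.00015) and the cortex 1.16 (SE 0.16, adjusted p = 9.88e-10). Against the mean of the other 4 regions the log2 difference of the cerebellum was -0.43 (SE 0.131, adjusted p = 0.00216).

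Fabp7 and Gdf10 carry the largest differences among the 10 genes, the first by state and the second by region, so the sequences just upstream of both are shown. They come from RefSeq, on GRCm38.p6, on the plus strand, and the Fabp7 stretch was cut where the GENCODE gene starts, upstream of the RefSeq start. The stretches are 208 bases at chr10:57784673-57784880 and 250 bases at chr14:33923337-33923586. Capitals mark matches, on either strand, to the CCAAT box (CCAAT) or the GC box (GGGCGG), common elements of vertebrate promoters. The TATA box (TATAAA) was searched as well.
Fabp7: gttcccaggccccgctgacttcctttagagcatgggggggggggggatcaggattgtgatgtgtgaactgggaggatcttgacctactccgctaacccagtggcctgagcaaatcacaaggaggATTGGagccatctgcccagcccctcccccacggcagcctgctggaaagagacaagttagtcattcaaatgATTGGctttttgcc
Gdf10: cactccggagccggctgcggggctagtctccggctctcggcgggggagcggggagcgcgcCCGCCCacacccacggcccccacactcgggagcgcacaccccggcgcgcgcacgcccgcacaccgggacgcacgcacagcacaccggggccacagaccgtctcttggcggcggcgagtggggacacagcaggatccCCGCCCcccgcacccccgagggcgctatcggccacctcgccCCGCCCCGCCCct
The Fabp7 stretch holds 2 matches to the CCAAT box and none to the GC box. The Gdf10 stretch holds 4 matches to the GC box and none to the CCAAT box, and those at positions 238 and 243 of the window overlap. Neither holds the TATA letters. Among 32851 RefSeq promoters cut to the same window, 29.6% hold the CCAAT box in the window of Fabp7 and 32.7% hold the GC box in that of Gdf10. GC content was 56.2% for Fabp7 and 78.8% for Gdf10, against a median of 52.4% over all promoters of 250 bases, and 98.3% of promoters had a lower GC content than that of Gdf10. A match of letters is a description of the window and shows no binding.

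Gdf10 encodes a secreted ligand of the bone morphogenetic protein family and is a marker of Bergmann glia. It lies on chromosome 14 from 33923587 to 33937983 (GRCm38, plus strand). In the cerebellum it ranged from 242 to 313 CPM with a mean of 278 ± 21.9 CPM (SD, n = 15). Outside the cerebellum the means were 14 ± 5.09 CPM in the hippocampus, 11.9 ± 2.54 in the amygdala, 7.55 ± 0.994 in the cortex and 6.47 ± 1.42 in the hypothalamus. The highest library outside the cerebellum held 31.8 CPM, far below the cerebellar range. The cerebellum lay 4.79 above the mean of the other 4 regions on the log2 scale (SE 0.0631, adjusted p = 1.03e-68). The hippocampus exceeded the amygdala by 0.23 (adjusted p = 0.048), but without the library of primiparous animal 413, which held Gdf10 at 31.8 CPM, the difference was 0.11 (adjusted p = 0.257). With the animal as a replicate block it was 0.21 (adjusted p = 0.0877).

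By state, Gdf10 in the cerebellum ranged from 251 to 313 CPM in virgins and from 242 to 294 CPM in primiparous females. The medians were 295 and 277 CPM and 7 of 8 primiparous libraries lay below the virgin mean, in the direction opposite to Fabp7. The log2 fold change was -0.10 (SE 0.0541), and it was the only 1 of the 10 that lay below 0 in this comparison. With the number series as a covariate it was -0.17. In the 4 tested regions the log2 fold changes of Gdf10 were 0.15, 0.23, 0.15 and 0.09 for the hypothalamus, hippocampus, cortex and amygdala. The adjusted p-values were 0.507 to 0.87, and without primiparous animal 413 the hippocampal value of Gdf10 was -0.01. Without virgin animal 4491 the value in the amygdala was -0.01, and over all single libraries left out the value in the hypothalamus was 0.07 (without primiparous animal 418) to 0.24 (without virgin animal 4486).

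Slc1a2 and Slc1a3 encode the glial glutamate transporters GLT-1 and GLAST. GLT-1 is the main transporter of the forebrain, and GLAST that of Bergmann glia. Slc1a2 lies on chromosome 2 from 102658659 to 102790784 (plus strand) and Slc1a3 on chromosome 15 from 8634124 to 8710764 (minus strand). An antisense gene, Gm13872, shares 189 exon bases with Slc1a2, and as no source used here says whether counting used the strand, reads of both cannot be told apart there. Slc1a2 averaged 3826 ± 515 CPM in the amygdala, 3482 ± 262 in the hippocampus, 2793 ± 541 in the cortex, 1655 ± 142 in the hypothalamus and 869 ± 84.9 in the cerebellum (SD). All neighbours in this order differed except the amygdala and the hippocampus (adjusted p = 0.0909). Slc1a3 was highest in the cerebellum, where Slc1a2 was lowest, with 1606 ± 114 CPM in the cerebellum and 648 ± 74.8 to 929 ± 120 CPM elsewhere.

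The balance of the transporters therefore separated the regions without overlap between the cerebellum and the rest. The ratio of Slc1a3 to Slc1a2 counts was 1.61 to 2.14 in the 15 cerebellar libraries, 0.425 to 0.558 in the hypothalamus, and at most 0.315 in the hippocampus, cortex and amygdala. The genes differ in exon length, so the ratio compares libraries and not the 2 transporters. Against the mean of the other regions the cerebellum was lower in Slc1a2 by -1.78 (SE 0.0571, adjusted p = 5.43e-44) and higher in Slc1a3 by 0.95 (SE 0.0359, adjusted p = 2.13e-39) on the log2 scale.

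**Figure D3:**
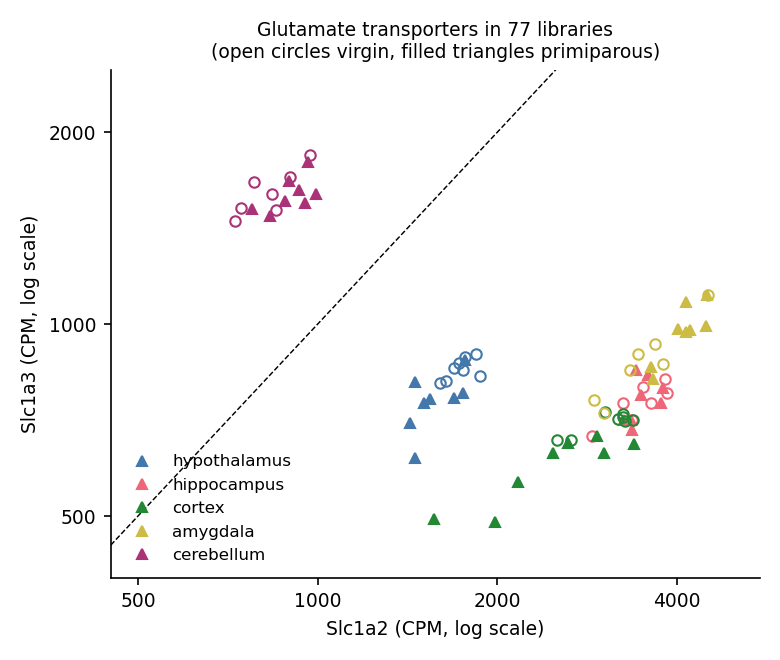
Slc1a3 against Slc1a2 in CPM (both axes on log scales) in the 77 libraries, coloured by region, with open circles for virgin and filled triangles for primiparous libraries and a dashed line at equal values. The cerebellar libraries alone lie above the line, at ratios of 1.61 to 2.14, and those of the hypothalamus form a group of their own at 0.425 to 0.558.

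By state, both transporters were lower in the primiparous hypothalamus. Slc1a2 ranged from 1604 to 1873 CPM in virgins (median 1735) and from 1429 to 1764 CPM in primiparous females (median 1522), with 5 of 8 primiparous libraries below every virgin library. Slc1a3 ranged from 808 to 898 CPM (median 851) and from 617 to 878 CPM (median 765), with 6 of 8 below every virgin library. The log2 fold changes were -0.16 (SE 0.0503, adjusted p = 0.0231) and -0.19 (SE 0.0534, adjusted p = 0.0152). Neither passed with the number series as a covariate, which gave -0.12 and -0.14 (adjusted p = 0.358 and 0.333), or after the correction for gene length and GC content, which gave log2 fold changes of -0.09 and -0.11 (0.186 and 0.156). Without primiparous animal 414 the adjusted p of Slc1a2 was 0.0544. The 4-digit primiparous library held Slc1a2 at 1753 CPM, within its virgins at 1604 to 1842 CPM, and Slc1a3 at 779 CPM, below them at 808 to 898 CPM. The 3-digit virgins held Slc1a2 at 1639 and 1873 CPM, of which the lower lay within the 3-digit primiparous libraries at 1429 to 1764 CPM. They held Slc1a3 at 814 and 828 CPM, both within 617 to 878 CPM.

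In the amygdala Slc1a2 ranged from 2897 to 4505 CPM in virgins and from 3620 to 4486 CPM in primiparous females, all 8 of which lay above the virgin mean (log2 fold change 0.23, SE 0.087, adjusted p = 0.299). The hypothalamic difference minus that of the amygdala was -0.38 for Slc1a2 (SE 0.102, adjusted p = 0.00848) and -0.34 for Slc1a3 (SE 0.105, adjusted p = 0.0202). Of all genes tested, 18.2% passed in this comparison. With the length and GC correction and the animal as a replicate block the values were -0.26 and -0.23 (adjusted p = 0.226 and 0.301). Against the hippocampus the difference of Slc1a3 was -0.22 (SE 0.0789, adjusted p = 0.0497) beside 17.2% of all genes, and with the animal as a replicate block it was -0.23 (adjusted p = 0.0909). These comparisons share the hypothalamic libraries. In the cortex the log2 fold changes were -0.25 for Slc1a2 and -0.20 for Slc1a3, with SEs of 0.126 and 0.0668 and adjusted p-values of 0.5 and 0.479. After the correction for gene length and GC content they were -0.15 and -0.10 (adjusted p = 0.842 and 0.81). Across the 16 cortical libraries Slc1a2 had r = -0.53 with the olfactory bulb sum, whose part in the cortical values was not tested. All 8 primiparous libraries of the cortex lay below the virgin mean of Slc1a3, and 7 of them below every virgin library. In the cerebellum the values were 0.13 (SE 0.0635) and 0.00 (SE 0.0538).

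Aqp4 encodes the water channel of astrocyte end-feet and Gja1 encodes connexin 43, the main gap junction protein of astrocytes. Gja1 lies on chromosome 10 from 56377330 to 56402513 (plus strand) and Aqp4 on chromosome 18. In the cerebellum Aqp4 ranged from 277 to 336 CPM in virgins and from 337 to 408 CPM in primiparous females, so the ranges did not overlap, though they nearly touched. The log2 fold change was 0.30 (SE 0.0558), and it was 0.28 to 0.33 without each library. Fabp7 and Aqp4 were the 2 of the 10 genes whose cerebellar ranges did not overlap, and 0.323% of all genes tested were like that. Nothing is read from this count, since the comparison served to choose the genes. In the hypothalamus, hippocampus, cortex and amygdala 0 of the 10 genes had ranges without overlap, beside 0.884%, 0.0845%, 0.0154% and 0.146% of all genes.

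In the amygdala Aqp4 ranged from 125 to 252 CPM in virgins (median 185) and from 215 to 284 CPM in primiparous females (median 232). All 8 primiparous libraries lay above the virgin mean, and the log2 fold change was 0.42 (SE 0.119, adjusted p = 0.209 in edgeR and 0.0236 in DESeq2). In the hypothalamus the medians were 185 and 165 CPM, and the log2 fold change was -0.11 (SE 0.0834, adjusted p = 0.364). The difference between these 2 regions was -0.53 (SE 0.156, adjusted p = 0.0192), and -0.34 (adjusted p = 0.264) with the length and GC correction and the animal as a replicate block. With that correction the hypothalamic value of Aqp4 was 0.05. Against the hippocampus the difference of Aqp4 was -0.31 with an adjusted p of 0.0837, and -0.34 with an adjusted p of 0.0415 with the animal as a replicate block. Gja1 in the amygdala ranged from 163 to 256 CPM and from 199 to 311 CPM, with a log2 fold change of 0.33 (SE 0.0992, adjusted p = 0.22). In the hippocampus it ranged from 152 to 198 CPM in virgins and from 181 to 211 CPM in primiparous females, where 6 of 8 libraries lay above every virgin library (0.16, SE 0.0531, adjusted p = 0.564). In the hypothalamus the log2 fold change of Gja1 was 0.10 (adjusted p = 0.144), and after the length and GC correction it was 0.25 (adjusted p = 0.0061).

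Between regions, Aqp4 was highest in the cerebellum at 345 ± 42.7 CPM (SD, n = 15) and lowest in the cortex at 109 ± 20.9 CPM (n = 16). The amygdala held 212 ± 45 CPM. The hypothalamus and hippocampus held 182 ± 24.5 and 165 ± 21.8 CPM. Their fitted log2 difference, which rests on a further normalization, was 0.00, and no difference was detected (adjusted p = 0.97). Gja1 was more even, from 147 ± 28.1 CPM in the cortex to 228 ± 43.6 CPM in the amygdala. The hypothalamus, hippocampus and cerebellum held Gja1 at 225 ± 16.1, 191 ± 17 and 206 ± 18.9 CPM. By the fitted levels they stood in that order, and neighbours did not pass the test (adjusted p = 0.171 and 0.713).

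Gfap encodes the intermediate filament protein by which astrocytes are stained, and it rises in reactive astrocytes. It lies on chromosome 11 from 102887336 to 102900912 (minus strand). The hippocampus held the most Gfap at 525 ± 52.5 CPM (SD, n = 15), followed by the amygdala at 411 ± 138, the hypothalamus at 366 ± 132, the cortex at 230 ± 36.8 and the cerebellum at 222 ± 26.5 CPM. The cortex and the cerebellum did not differ beyond their spread (adjusted p = 0.176). Single libraries set the spread of the hypothalamus and the amygdala. Primiparous animal 427 held 782 CPM in the hypothalamus and 726 CPM in the amygdala, where the next highest primiparous libraries held 440 and 404 CPM, and virgin animal 409 held 724 CPM in the amygdala. By state the log2 fold change was 0.19 in the hypothalamus (SE 0.226, adjusted p = 0.577), and -0.03 without animal 427. It was 0.05 in the amygdala (adjusted p = 0.965), -0.11 without animal 427 and 0.26 without virgin animal 409. The cortical value was 0.03 (adjusted p = 0.914), and -0.01 to 0.10 without each library in turn. In the hippocampus 7 of 8 primiparous libraries lay below the virgin mean (452 to 580 CPM against 503 to 620 CPM, log2 fold change -0.15, SE 0.0579, adjusted p = 0.615). In the cerebellum the value was 0.16 (SE 0.0734), and 0.07 with the number series as a covariate.

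Aldh1l1, Aldoc and S100b encode a folate enzyme widely used to label astrocytes, the brain form of aldolase, and a calcium binding protein. Aldoc is also made by bands of Purkinje cells, and S100b by some oligodendrocytes. Aldh1l1 lies on chromosome 6 from 90486427 to 90600203 (plus strand) and shares up to 499 exon bases with the genes Gm45901 and Gm15756. Aldoc lies on chromosome 11 from 78322968 to 78327781 and S100b on chromosome 10 from 76253853 to 76261159, both on the plus strand. S100b stood at 653 ± 109 CPM (SD, n = 15) in the cerebellum and at 123 ± 15.6 to 168 ± 15.7 CPM elsewhere (log2 difference 2.0, SE 0.0511, adjusted p = 2.88e-50). Aldoc stood at 2657 ± 207 CPM in the cerebellum and at 968 ± 92.7 to 1272 ± 122 CPM elsewhere (1.14, SE 0.0405, adjusted p = 4.05e-41). Aldh1l1 varied little, from 70.1 ± 11.2 to 78.3 ± 11.3 CPM in 4 regions, and lower in the hippocampus at 47.8 ± 4.56 CPM. Among the 4 the cortex was the highest, and it differed from the hypothalamus (adjusted p = 0.00294) and the cerebellum (adjusted p = 0.000675).

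By state, the log2 fold changes of Aldh1l1 and Aldoc lay between -0.10 and 0.09 in the 5 regions. S100b in the cerebellum ranged from 509 to 675 CPM in virgins (median 592) and from 556 to 853 CPM in primiparous females (median 744), with 6 of 8 above every virgin library and a log2 fold change of 0.33 (SE 0.084). In the tested regions its log2 fold changes were -0.08 to 0.11, with adjusted p-values of 0.389 to 0.972. Without primiparous animal 427 the cortical value of S100b was -0.13, and without primiparous animal 413 the hippocampal value was -0.15 (adjusted p = 0.499 and 0.411). The cortical library of primiparous animal 427, which had the highest olfactory bulb sum, also held the highest cortical S100b at 272 CPM and the lowest cortical Slc1a2 at 1568 CPM.

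**Figure D4:**
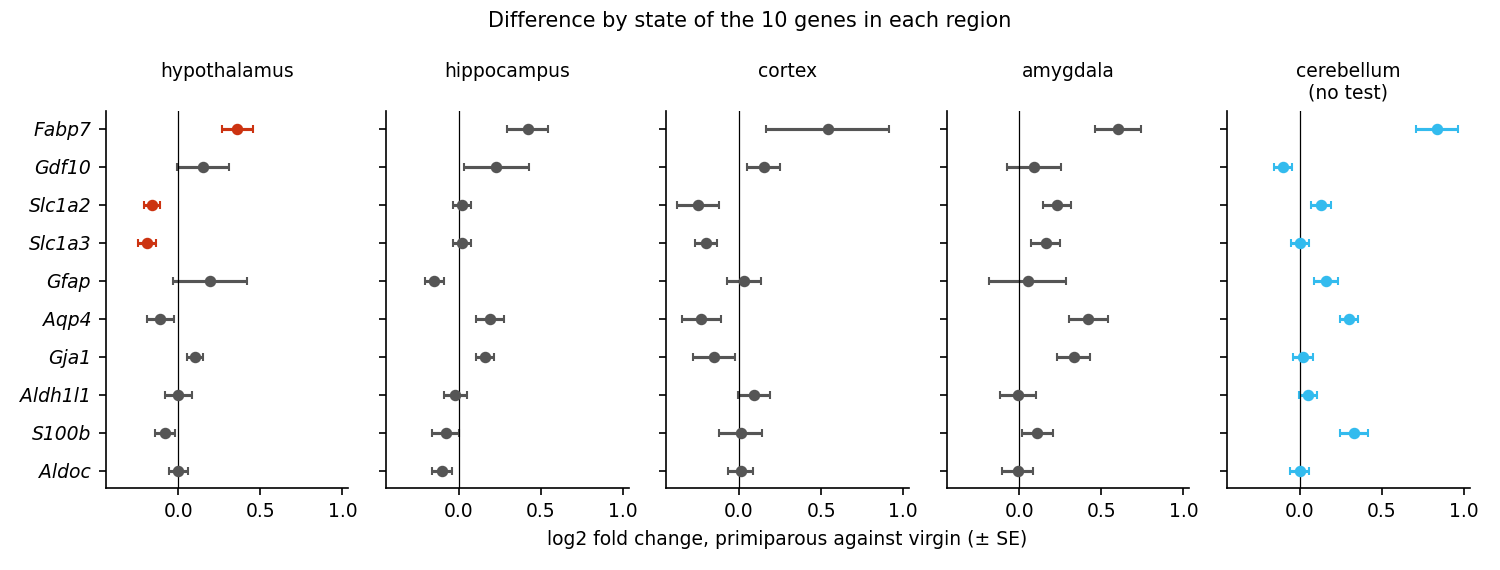
Log2 fold change of primiparous against virgin libraries with its standard error (horizontal axis) for the 10 genes (vertical axis) in each region, with genes that passed the test in red, others in grey, and untested cerebellar values in light blue. Fabp7 lies above 0 in every region, from 0.36 in the hypothalamus to 0.84 in the cerebellum, while Slc1a2 and Slc1a3 pass below 0 in the hypothalamus at -0.16 and -0.19.

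Over the 10 genes, 3 passed the test by state in the hypothalamus, 1 higher and 2 lower, a share near the 22.6% of all genes. The median log2 fold change of the 10 was -0.00 there, beside 0.01 over all genes. In the hippocampus, cortex and amygdala 0 of 10 passed in edgeR, beside 0% of all genes in each. At an unadjusted p under 0.05 there were 4, 1 and 4 of the 10. With limma-voom 0 passed in each, and with DESeq2 0, 0 and 2. Of all genes, 961, 1276 and 1544 had an unadjusted p under 0.05 in these regions, and DESeq2 called 12, 4 and 95. The medians of the 10 were 0.02, 0.01 and 0.14. In the cerebellum 9 of 10 values lay above 0, 2 of them at 0.00 when rounded, with a median of 0.09 beside 0.01 over all genes, of which 51.6% lay above 0. With the number series as a covariate Slc1a3, Aldh1l1 and Aldoc lay below 0 as well, at -0.04, -0.03 and -0.09. The hypothalamus minus cortex comparison called 0 of 10, 0 of them at an unadjusted p under 0.05, and 0% of all genes, of which 336 had an unadjusted p under 0.05. The smallest unadjusted p of the 10 was 0.0791 there, for Gja1.

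Differences between regions passed for most of the 10 genes, as they did for most of all genes tested. Whether the counts below differ from the shares of all genes was not tested. In the cerebellum 5 of 10 were higher than the mean of the other regions and 3 lower, beside 42.3% and 40.2% of all genes. In the amygdala 7 were higher and 3 lower (33.3% and 33.2% of all genes), and in the cortex 3 were higher and 7 lower (37.7% and 36.2%). In the hippocampus 2 were higher and 7 lower (32.4% and 34.1%), and in the hypothalamus 1 was higher and 6 lower (38.5% and 39.1%). Of the 100 comparisons of 1 gene between 2 regions, 82 passed, and 81 with the animal as a replicate block. Of all 13016 genes, 7643 to 10555 passed per pair of regions. The cerebellum was high in Gdf10, S100b, Aldoc, Aqp4 and Slc1a3 and low in Slc1a2 and Gfap. Its Fabp7 lay below that of the cortex and amygdala, and its differences from the hypothalamus and hippocampus did not pass without the block, while its Gja1 and Aldh1l1 differed from the mean of the others by -0.01 and 0.02 (SE 0.0516 and 0.0518).

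**Figure D5:**
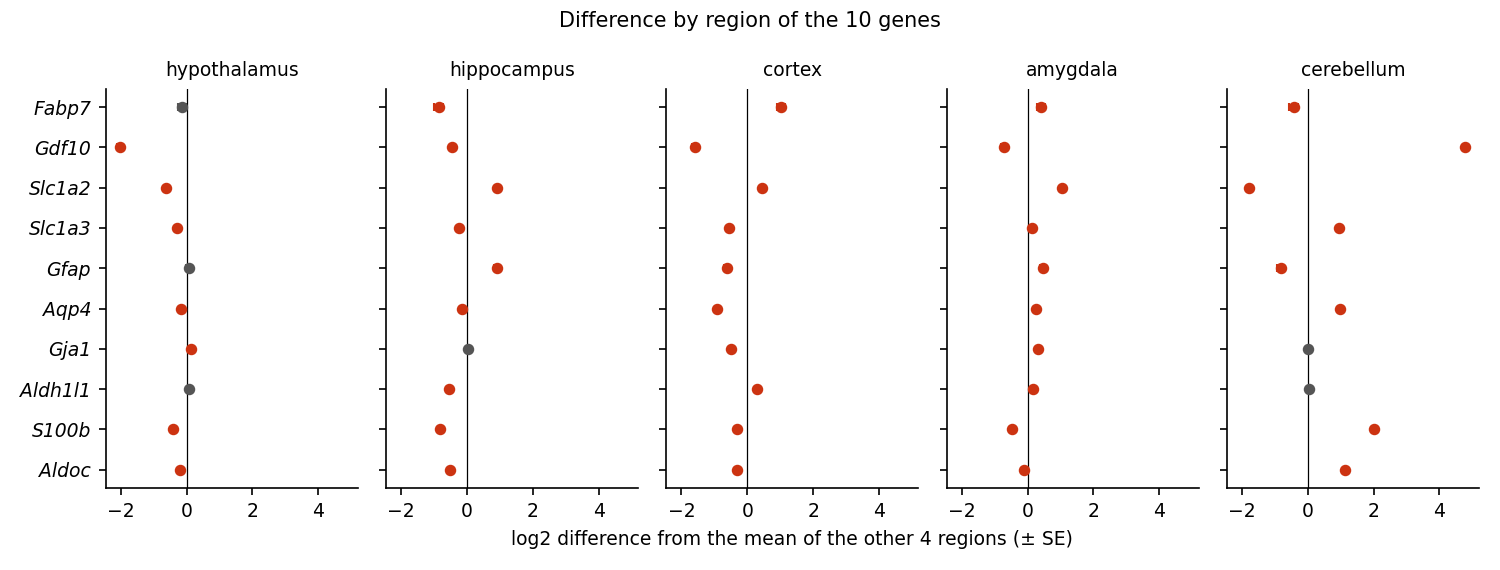
Log2 difference of each region from the mean of the other 4 regions with its standard error (horizontal axis) for the 10 genes (vertical axis), with differences that passed the test in red and the others in grey. Gdf10 in the cerebellum, at 4.79, lies farthest from 0, and Slc1a2 in the cerebellum, at -1.78, is the lowest value other than the negative values of Gdf10 itself in the hypothalamus.

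Levels can be compared between genes only per length. In CPM divided by the exon bases of a gene in kilobases (RPKM), Aldoc was the highest of the 10 in every region, from 297 ± 28.4 in the hippocampus to 814 ± 63.5 in the cerebellum (SD). Slc1a2 was next in the hypothalamus, hippocampus, cortex and amygdala, at 126 ± 10.8 to 291 ± 39.2, and S100b in the cerebellum at 440 ± 73.2. Gdf10 was the lowest in the 4 regions outside the cerebellum, at 1.24 ± 0.272 to 2.68 ± 0.976, but was the sixth in the cerebellum at 53.4 ± 4.2, above Fabp7 at 24.8 ± 8.56. With the longest transcript as the length, Slc1a2 at 143 came after Slc1a3 at 181 in the hypothalamus, and Gdf10 was the seventh in the cerebellum. Per exon length Fabp7 stood at 17.2 ± 4.09 in the hippocampus and 49.7 ± 27.7 in the cortex.

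A further 30 astrocyte genes and 8 further genes of Bergmann glia were examined beside the 10. In the hypothalamus 4 of the 30 passed by state, 3 higher and 1 lower, and 1 of the 8, beside 22.6% of all genes. A difference from that share was not tested. Apoe, which encodes an apolipoprotein that astrocytes release, ranged from 1676 to 2306 CPM in virgins and from 1911 to 3155 CPM in primiparous females (log2 fold change 0.35, SE 0.0809, adjusted p = 0.0058). Bcan, which encodes the matrix protein brevican, rose by 0.24 (adjusted p = 0.00886) and the amino acid transporter Slc7a10 by 0.22 (adjusted p = 0.0137). Ttyh1 fell by 0.14 on the log2 scale (adjusted p = 0.0306). The 1 Bergmann glia gene that passed was the glutamate receptor gene Gria4, which neurons express too, at -0.20 (adjusted p = 0.018). With the number series in the fit 0 of 13016 genes passed as higher and 3 as lower, so Apoe, Bcan and Slc7a10 did not pass there. The fold changes of these genes in that fit, and whether Ttyh1 and Gria4 were among the 3, are not given here. Without the number series the median log2 fold changes of the lists were 0.03 and -0.01. In the hippocampus, cortex and amygdala 0 of the 38 passed, and the smallest p-values belonged to the metallothionein gene Mt1 in the hippocampus (-0.26, adjusted p = 0.167), Gpr37l1 in the cortex (0.15, adjusted p = 0.488) and Dio2 in the amygdala (0.53, adjusted p = 0.212). Among the Bergmann glia genes they belonged to Gria4 in the hippocampus (0.21, adjusted p = 0.661) and the cortex (-0.17, adjusted p = 0.504) and to Septin4 in the amygdala (-0.25, adjusted p = 0.483). The hippocampal library of primiparous animal 413 held Gria4 at 98.3 CPM against 50 to 66.6 CPM in virgins, and without it the log2 fold changes were 0.13 for Gria4 (adjusted p = 0.566) and -0.26 for Mt1 (adjusted p = 0.119).

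In the cerebellum, again with no test, the highest log2 fold changes by state among the 30 were those of the transcription factor gene Sox9 at 0.34 (SE 0.0894), the regulator Id4 at 0.29 (SE 0.0549) and Dio2, which activates thyroid hormone, at 0.25 (SE 0.0597). The lowest were Mt1 at -0.17, the connexin gene Gjb6 at -0.12 and Agt at -0.11. Among the Bergmann glia genes Hopx was the highest at 0.30 (SE 0.0607), with 138 to 165 CPM in virgins and 161 to 221 CPM in primiparous females. It was followed by the glutamate receptor genes Gria1 at 0.18 and Gria4 at 0.09, and the lowest were Gli1 at -0.18, Ptch1 at -0.08 and Septin4 at 0.02. The medians of the lists were 0.06 and 0.05, beside 0.01 over all genes, and 18 of 30 and 6 of 8 values lay above 0.

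Against the mean of the other regions, all 8 Bergmann glia genes were higher in the cerebellum, with a median log2 difference of 2.15. Of all genes 42.3% were higher, but these 8 were listed as genes of a cerebellar cell type, so nothing is read from the count. Dao, D-amino acid oxidase, held 87.9 to 112 CPM there and at most 8.29 CPM in any other library. Its mean elsewhere was 0.505 CPM, so it passed the filter on low counts only through the cerebellum. Its test is therefore not read. Gria4 stood 2.57 and Hopx 2.35 above the other regions, and the smallest differences were 0.26 for Gria1, 1.60 for Ptch1 and 2.11 for Septin4. Gria4, Hopx, Gria1, Ptch1 and Septin4 passed the test. Of the 30 astrocyte genes 15 were higher and 13 lower, close to the 42.3% and 40.2% of all genes. Vim led at 2.08 (adjusted p = 2.23e-41), then Gpr37l1 at 1.35 (5.41e-48) and the bicarbonate transporter Slc4a4 at 1.07 (1.23e-34). Slc6a11, a GABA transporter, was the lowest at -2.19 (1.55e-44), with Clu at -0.96 (1.07e-34) and Dio2 at -0.88 (5.78e-18).

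Markers of other cells are given beside these genes in the cerebellum, with no test. Of all genes 51.6% had a log2 fold change by state above 0. It lay above 0 for 6 of 6 oligodendrocyte genes, 6 of 6 microglial genes, 4 of 5 genes of oligodendrocyte precursors, 4 of 4 tested meningeal genes, 4 of 4 tested genes of ependyma and tanycytes and 5 of 5 Purkinje cell genes. For granule neurons 1 of 5 lay above 0 and for neurons in general 0 of 5, while 2 of 5 endothelial genes did. Summed levels of the oligodendrocyte genes were 4457 to 5920 CPM in virgins and 5357 to 7513 CPM in primiparous females, and of the precursor genes 147 to 157 and 160 to 189 CPM. Those of the microglial genes were 120 to 145 and 138 to 170 CPM, of the meningeal genes 139 to 201 and 195 to 285 CPM, and of the granule neuron genes 3197 to 3590 and 2604 to 3582 CPM. The precursor sums did not overlap between the states. Choroid plexus genes, 4 of 4 tested above 0, summed to 34.6 to 1291 CPM in virgins and 45.3 to 3573 CPM in primiparous females. Of the ependyma and tanycyte genes, Rax, Ccdc153 and Tmem212 had means under 5 CPM in both states of the cerebellum. Of the choroid plexus genes, Folr1 and Aqp1 did. Nothing is read from the counts above 0 of the ependyma and choroid plexus lists. None of these markers was at 0 in all cerebellar libraries of a state, and their part in the differences of the 10 genes was not tested.

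In the hypothalamus 3 of 5 oligodendrocyte precursor genes (Cspg4, Olig1 and Olig2) and 2 of 4 tested ependyma and tanycyte genes (Ccdc153 and Nes) passed by state, all higher in primiparous females, beside 22.6% of all genes in either direction. Of the other lists, 1 gene was higher and 1 lower for oligodendrocytes, for Purkinje cells and for olfactory ensheathing glia, 1 higher and 2 lower for neurons in general, and 1 higher for endothelium and for choroid plexus. No gene passed as higher with the number series in the fit. The summed levels were 388 to 437 against 435 to 496 CPM for the precursors and 46.8 to 69.7 against 56 to 102 CPM for ependyma and tanycytes. In the amygdala the log2 fold changes lay above 0 for 6 of 6 microglial, 4 of 4 tested meningeal and 4 of 5 endothelial genes. They lay above 0 for 1 of 6 oligodendrocyte genes, beside 50.5% of all genes. The 5 of 5 granule neuron genes also lay above 0, but Gabra6, Cbln3, Fat2 and Barhl1 had means under 5 CPM there in both states. Nothing is read from that count. None of the genes of these lists passed in edgeR in the amygdala. Of the 6 genes listed for reactive astrocytes 4 were tested, and Lcn2 and Timp1 did not pass the filter on low counts. In the hypothalamus Serpina3n was lower by -0.38 (adjusted p = 0.00524), and the sums of the 6 were 81.8 to 109 CPM in virgins and 62.9 to 101 CPM in primiparous females. With the number series in the fit 3 genes of all tested passed as lower there, against 1534 without it. Whether Serpina3n was among them is not given here. In the cerebellum the sums of the 6 were 14.6 to 20.6 and 12.8 to 21.4 CPM. The part of these cells in the values of the 10 genes was not tested.

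Within groups of 1 region and 1 state, the 10 genes varied together to an extent that depended on the region. Over the 77 libraries, each set against the mean of its group, the median r of log2(CPM + 4) over the 45 pairs of genes was 0.30 (range -0.28 to 0.82), while over all pairs of genes it was 0.01. Slc1a2 with Aqp4 gave 0.82, Aldh1l1 with Aldoc 0.79 and Slc1a2 with Slc1a3 0.76, whereas Fabp7 with Slc1a2 gave -0.28. That pair stood at 0.49, 0.69, 0.61 and 0.31 in the hypothalamus, hippocampus, amygdala and cerebellum, and below 0 in the cortex alone. In the amygdala the median was 0.72 and all 45 pairs lay above 0 (n = 15). In the hypothalamus, hippocampus and cerebellum the medians were 0.43, 0.36 and 0.34. In the cortex the median was -0.16, with 21 of 45 pairs above 0 and Fabp7 with Slc1a2 at -0.70 (n = 16). The libraries of a group share their dissection and sequencing pool, the points differ in depth, and these values are descriptions.

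The genes most like Fabp7 over the 77 libraries were S100a5 (r = 0.86), Omp, which encodes the olfactory marker protein (0.86), Th (0.81), Ms4a15 (0.80) and Calb2 (0.79). This likeness rested on the cortex, where r was 0.92 to 0.97, against 0.08 to 0.33 over the 61 other libraries. Over the 5 region means, genes with a pattern like that of Fabp7 included Elob (0.9991), Flrt1 (0.9959), Tm7sf2 and Pabpn1 (each 0.99). The genes most like Gdf10 over the 77 libraries were Ppp1r17 (0.61), Gabra6 (0.60), Chn2 (0.58), Car8 (0.56) and Dao (0.56), and without the hippocampal library of animal 413 these fell to 0.17 to 0.31. Over the 5 region means they were Hnrnpf, Top2b, Msl3, Mpzl3 and Vamp8 (0.9980 to 0.9985). The values over region means, for Fabp7 as well, are the highest among 13016 genes over only 5 points. Nothing is read from them. The level of Fabp7 in an animal was not shared strongly between regions. Over the 10 pairs of regions, r between values of the same animal, set against group means, was -0.30 to 0.48 (n = 14 to 16).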

How the data were processed

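RNA from 5 brain regions of 16 mice was sequenced as single-end reads. The authors aligned them with HISAT2 to mm10 and counted them per gene with featureCounts, using its inbuilt annotation. The strand setting is not given in the sources used here. They deposited whole-number counts for 27179 genes and 77 libraries, without normalization, and a log2 table of 13016 genes. The deposited log2 values differ from log2(CPM + 4) by a median of 3.942, and lie within 5e-05 of log2 of the sum of 4 and the count divided by a size factor. They served only as an alternative. Of the 80 libraries 3, which the authors removed as outliers, were not analysed here.

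CPM was computed from the counts. Each region was fitted alone for the states, and 10 groups of 77 libraries together for the regions. The fits used edgeR (4.0.16) with TMM normalization and robust quasi-likelihood F-tests. CPM values carry no TMM factors, so CPM means and fitted differences can depart from each other. P-values were two-sided and adjusted by the Benjamini-Hochberg method over 13016 genes. A gene passed at an adjusted p under 0.05. Alternatives used limma (3.58.1), DESeq2 (1.42.0), RLE factors, no filter on low counts, the number series as a covariate, an offset for gene length and GC content (splines of 4 degrees of freedom, 12632 genes, 97.05%), the animal as a replicate block and leaving out each library. The fits were tested on simulated data with log2 changes of 0.6 and 1.0 only. At 0.6 edgeR recovered 87% of changed genes by state in the hypothalamus and 96% by region in the cerebellum. For the difference of state differences between hypothalamus and amygdala it recovered 63%, and 55% with the block. Recovery of smaller changes was not tested. R was 4.3.3, Python 3.11.15, numpy 2.4.6, pandas 2.3.3 and matplotlib 3.10.9. Positions and lengths are from GENCODE on GRCm38, which is mm10.

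Labels and methods give the same animals in all regions, so equal numbers pair the libraries between regions. Deviations from group means were compared between regions, and their median r per pair of regions was -0.0132 to 0.104 for the same animal and -0.0205 to 0.00685 for different animals. The states are different animals and cannot be paired.

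The 10 genes and all lists were chosen with earlier results of these data known. Further list genes were named by rule: up to 4 past the threshold with the largest fold changes by state, or the 1 with the smallest p, the 3 highest and 3 lowest in the cerebellum, and the 5 most alike genes, of which 1 is not reported here.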

Additional observations from a re-analysis of the deposited data

Results flagged for a closer look

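Of 100 groups of 1 gene, 1 region and 1 state, 8 held a library far from the others by Dixon's test, which by chance marks about 1 group in 20. Primiparous animal 427 held Gfap at 782 CPM in the hypothalamus and at 726 CPM in the amygdala, and S100b at 272 CPM in the cortex. The nearest libraries of those groups held 440, 404 and 169 CPM. Virgin animal 409 held Gfap at 724 CPM in the amygdala, with the nearest at 435 CPM. Primiparous animal 413 held Gdf10 at 31.8 CPM and S100b at 164 CPM in the hippocampus, with the nearest at 14.2 and 125 CPM, in the library that also held cerebellar granule neuron genes at 267 CPM. Primiparous animal 415 held Fabp7 at 34.9 CPM in the hippocampus, with the nearest at 24.6 CPM. Primiparous animal 4493 held Aldoc at 2248 CPM in the cerebellum, with the nearest at 2605 CPM.

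The difference by state differed between regions by an interaction test in edgeR for 3 genes against the amygdala and 1 against the hippocampus, beside 18.2% and 17.2% of all genes. The hypothalamic difference minus that of the amygdala was -0.38 for Slc1a2, -0.34 for Slc1a3 and -0.53 for Aqp4 on the log2 scale (adjusted p = 0.00848, 0.0202 and 0.0192). Minus that of the hippocampus it was -0.22 for Slc1a3 (adjusted p = 0.0497). With the length and GC correction and the animal as a replicate block none of the 4 differences passed (adjusted p = 0.226, 0.301, 0.264 and 0.545), and with the block alone that of Slc1a3 against the hippocampus did not (adjusted p = 0.0909). These comparisons share the hypothalamic libraries.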

How the results depend on the processing

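With the number series as a covariate 0 of the 10 genes passed by state in the hypothalamus, where 3 passed without it, and that fit called 3 genes of all tested against 2939. DESeq2 passed 2 genes in the amygdala (Fabp7 and Aqp4). The length and GC correction passed 2 in the hypothalamus (Fabp7 and Gja1) and 452 genes of all. With that correction and the animal as a replicate block, the difference by state of 0 of the 10 genes differed between the hypothalamus and the hippocampus, and of 0 between the hypothalamus and the amygdala. For these differences the replicate block alone gave 1 (Aqp4, in place of Slc1a3), 0 for the cortex and 3, and 81 in place of 82 of 100 comparisons between regions, as did leaving out hippocampal animal 413 (chosen after seeing the data). The cause of these changes was not tested. For the fits with the block the share of all genes is not given here, so nothing about the 10 genes is read from those counts. Leaving out each library gave 2 to 3 genes in the hypothalamus, and 0 in the hippocampus, cortex and amygdala. Of all 13016 genes those fits called 2014 to 4119, 0 to 1, 0 and 0 to 31 in these regions. Of the values of single genes under the alternatives, 1496 kept their direction and, where a test was run, their side of the threshold. A further 14 lost and 5 gained the call, and 76 moved without one. Cerebellar values by state have no test and so no side of the threshold.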
